A study of Mus musculus with 2 samples.

Results

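Laminins are the ligands that epithelial cells meet in their basement membrane, and integrins are the main receptors through which the cells hold on to them. The genes of both families were taken by symbol, as every laminin chain (Lama, Lamb or Lamc followed by a digit) and every integrin subunit (Itga or Itgb followed by its number or letter). This gave 37 of the 49492 genes in the table, namely 11 laminin chains, 18 integrin α subunits and 8 integrin β subunits. Basal epithelial cells were sorted from the mammary glands of adult female mice, genotype WT, and cultured in 3D either alone (ctrl, treatment none) or co-cultured with M2-like macrophages for 11 to 14 days (M2). According to the study's methods, the gel was Matrigel and the medium held EGF and ITS (insulin, transferrin and selenium). By the same methods, the macrophages were derived from bone marrow, polarised with Il-4 and Il-13, and kept behind a porous membrane in an insert. The starting cells were gated as high for CD29, which is the protein of Itgb1, so a high level of that gene was part of how the starting cells were chosen in both groups. This gate was applied before culture, and not to the cultured cells that were sequenced. By the study's flow cytometry of such cultures, most cells in both groups were luminal, a gate low for CD29. The basal share was larger after co-culture with M2. Each group was 1 library, and nothing in the labels says how many mice or wells were pooled in it. No difference below could therefore be set against the spread between cultures, and each test compares the reads of these 2 libraries and not the conditions.

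A laminin is a cross-shaped trimer of an α, a β and a γ chain. Lama3 and Lamb3 are chains of the laminin that anchors basal cells in stratified and glandular epithelia, while chains such as Lama5, Lamb1 and Lamc1 form the more widespread laminins. An integrin is a dimer of an α and a β subunit. Integrins α3β1, α6β1 and α6β4 bind laminin, α1β1, α2β1, α10β1 and α11β1 bind collagen, and α5β1, α8β1 and the αv dimers bind ligands with an RGD motif such as fibronectin. In the mammary gland, basal cells sit on the basement membrane and are known for high α6 and β1 integrin.

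To show the regulatory sequence of members whose values are described below, the 250 bases before the RefSeq start site (build GRCm38.p6) are given for Itga2 and Itga5, both called higher in M2, for Itgb1, the subunit with the highest level, and for Itga8, the α subunit with the largest loss of reads. Each sequence is written 5′ to 3′ on the strand of the gene and lies outside the span that the table gives for the gene. Capitals mark a match to a TEAD motif.
Itga2, chr13:114932101-114932350, minus strand: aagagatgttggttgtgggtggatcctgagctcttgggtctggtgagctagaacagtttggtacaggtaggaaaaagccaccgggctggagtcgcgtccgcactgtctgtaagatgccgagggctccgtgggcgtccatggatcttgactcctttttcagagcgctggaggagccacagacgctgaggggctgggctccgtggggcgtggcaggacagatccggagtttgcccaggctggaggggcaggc
Itga5, chr15:103366792-103367041, minus strand: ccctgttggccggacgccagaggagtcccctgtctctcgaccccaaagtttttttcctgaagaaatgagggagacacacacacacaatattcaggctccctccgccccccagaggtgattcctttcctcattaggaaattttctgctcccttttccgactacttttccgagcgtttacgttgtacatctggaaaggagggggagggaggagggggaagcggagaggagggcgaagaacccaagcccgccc
Itgb1, chr8:128685404-128685653, plus strand: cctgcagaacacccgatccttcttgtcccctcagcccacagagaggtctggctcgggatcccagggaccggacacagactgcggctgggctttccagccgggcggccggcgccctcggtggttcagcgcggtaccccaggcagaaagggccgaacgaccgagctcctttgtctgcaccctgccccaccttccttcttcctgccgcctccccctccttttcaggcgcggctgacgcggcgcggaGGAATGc
Itga8, chr2:12301945-12302194, minus strand: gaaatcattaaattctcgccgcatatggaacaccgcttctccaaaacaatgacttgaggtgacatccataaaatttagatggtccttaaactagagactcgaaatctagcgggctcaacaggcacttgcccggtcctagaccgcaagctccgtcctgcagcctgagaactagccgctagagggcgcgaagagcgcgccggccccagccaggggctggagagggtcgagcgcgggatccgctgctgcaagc

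RefSeq windows were found for 23 of the 37 members, 26 windows in all, each running from 250 bases before to 50 bases after a start site. Among 32851 windows of all genes, 7.81% held the AP-1 motif TGANTCA on either strand, and among the member windows 3 did (Itga3, Itga9 and Itgax). The TEAD motif GGAATG was in 3 (Itga10, Itgb1 and Lamb3), against 14.7% of all windows, and the hypoxia motif ACGTG in 1 (Itga9), against 19.6%. These matches are descriptions of letters, not of bound sites. In the Itgb1 sequence the TEAD match stands at positions -7 to -2 from the start site. The bases before the start site had a median GC content of 58.0% over the member windows, against 52.4% over all windows, and a median of 10 CpG dinucleotides against 6.

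Reads in genes numbered 26912610 for ctrl and 29413844 for M2. Among 19233 genes with at least 10 reads summed over both, the median log2 difference was -0.0032 (M2 over ctrl, reads plus 1, scaled with TMM). A gene was called when its exact binomial test gave a Benjamini-Hochberg adjusted p under 0.05 over all genes and the difference was at least 2-fold, and 14.7% of genes were called. Of the basal markers, Krt5 (56383 and 83619 reads in ctrl and M2), Krt14 (81991 and 68968 reads) and Trp63 (5445 and 6331 reads) had many reads in both libraries, as had the luminal marker Krt8 (29888 and 36348 reads). Among the 7 luminal markers only Krt8 had a positive log2 difference (0.21), 6 were negative, and the median was -0.78. Of 6 basal markers 0 were called higher and 1 lower (Oxtr), and of 7 luminal markers 0 were called higher and 3 lower (Elf5, Foxa1 and Esr1). Their summed levels were 7466 and 7493 CPM (counts-per-million reads) for the basal list in ctrl and M2, and 2569 and 2301 CPM for the luminal list; their part in the results below was not tested. In such bulk libraries, fewer cells of a type and less RNA per cell cannot be told apart.

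Laminin and integrin transcripts together were 0.417% of all ctrl reads, with a 95% Wilson interval of 0.415 to 0.420, and 0.584% of all M2 reads, with an interval of 0.582 to 0.587. Of the 37 genes, 33 had enough reads to be tested. In M2, 8 were called higher, which is 24.2% of those tested against 8.16% of all genes tested, and 3 were called lower, which is 9.09% against 6.55% of all genes tested. The other 22 were not called, and the 4 genes that were not tested (Lamc3, Itgad, Itgal and Itgax) had at most 8 reads in a library. The median log2 difference of the tested members was 0.19 (0.36 when both libraries had to reach 1 CPM, a filter that removed Lama2), or 0.18 when the 1 gene with at most 3 reads in a library (Itgam) was set at its interval limit nearest to 0. The genes called higher included Lama3, Lama4, Itga2, Itga3, Itga5, Itga7 and Itgb6, and those called lower were Lama2, Itga9 and Itga11. The 95% intervals of Itga7, Itga9 and Itga11 included the 2-fold threshold. If cultures are assumed to vary with a biological coefficient of variation of 0.2, the exactTest of edgeR still called 4 higher (Lama4, Itga2, Itga3 and Itgb6) and 2 lower (Lama2 and Itga11), against 5.01% and 3.59% of all genes. The calls of Lama3, Itga5, Itga7 and Itga9 were among those lost under that assumption. With an assumed coefficient of 0.4 it called 0 members, against 0.91% of all genes higher and 0.676% lower.

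**Figure D1:**
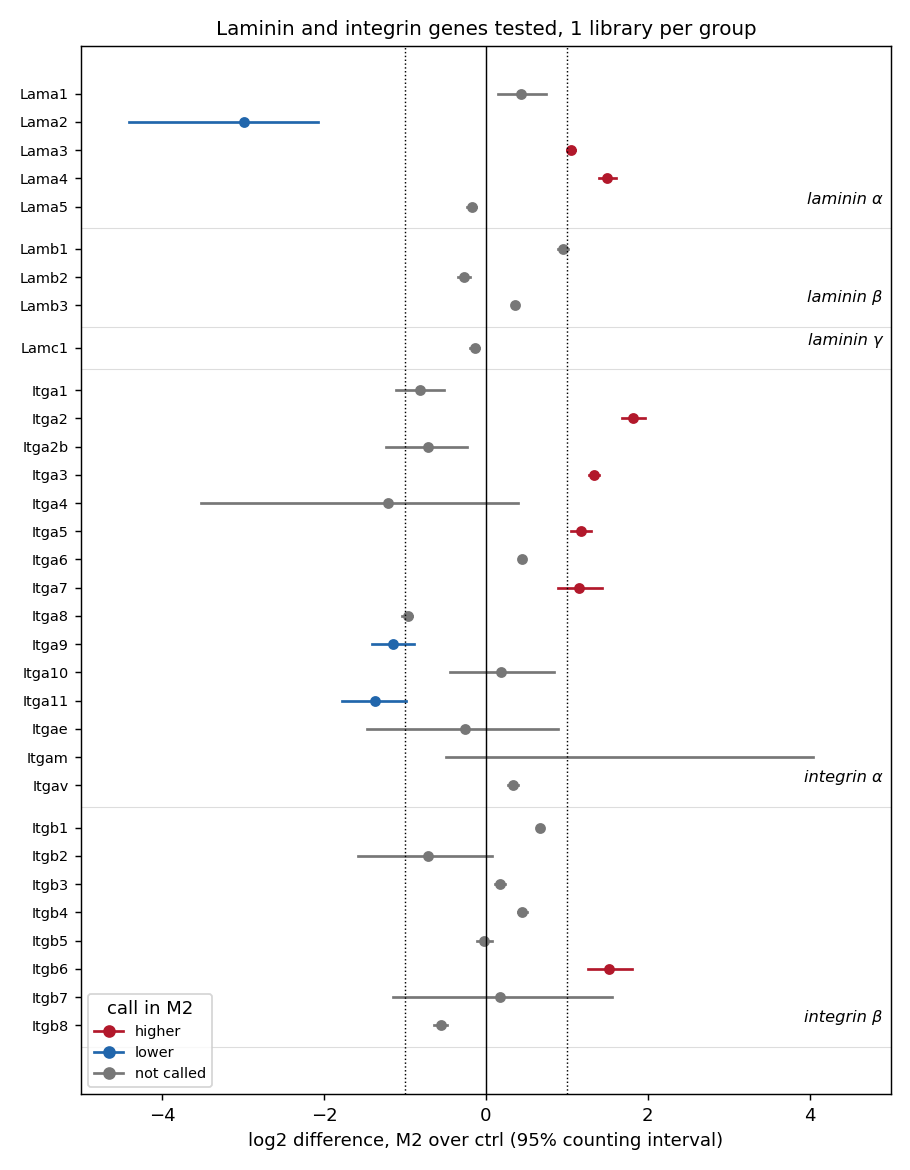
Log2 difference in reads, M2 over ctrl, of laminin and integrin genes tested, with its 95% counting interval as a line and 1 library per group. Dotted lines mark a 2-fold difference; red points are genes called higher in M2, blue points genes called lower (Lama2, Itga9 and Itga11), and Itgam, with 3 reads in ctrl, is shown by its interval only. The highest point is Itga2 at 1.82 and the lowest is Lama2 at -2.99.

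Of the α and β chains typical of epithelial anchorage, Lama3 was called higher and Lamb3 was not called. Lama3 (chromosome 18, 12333819 to 12583013 on GRCm38), the α3 chain, went from 5802 reads in ctrl to 12621 in M2. It was 2.07-fold higher in M2 (95% interval 2.01 to 2.14), just past the threshold. When libraries were scaled by total reads alone, its log2 difference of 0.99 fell short of the threshold. A gene on the opposite strand, with 256 and 498 reads, overlaps 1.83% of its exon bases, and without known strand use reads of the overlap cannot be told apart. Lamb3 (chromosome 1, 193207699 to 193343878), the β3 chain, had 9864 and 13264 reads, a 1.28-fold difference (1.25 to 1.32), and was not called. Lamb3 thus differed less than the α chain it joins. The ratio of Lama3 to Lamb3 per length was 0.362 in ctrl and 0.586 in M2, and its log2 change of 0.69 had a 95% interval of 0.64 to 0.75.

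Other laminin chains moved in both directions. Lama4 (chromosome 10, 38965515 to 39110188), the α4 chain known from vessels and mesenchymal tissue, went from 963 reads in ctrl to 2857 in M2, a 2.83-fold rise (2.63 to 3.05) and the largest among laminin α chains. Endothelial and platelet markers held 57 reads in ctrl and 85 in M2, with Pecam1 called higher and Cdh5 and Kdr called lower. Fibroblast markers held 7447 reads in ctrl and 3591 in M2. The part of either list in the rise of Lama4 was not tested. Lama2 (chromosome 10, 26980036 to 27619758), the muscle laminin chain, fell from 67 reads to 8, a log2 difference of -2.99 (-4.40 to -2.07), the largest in either direction among all members. Its level was low in both libraries, at 0.388 and 0.0429 TPM (transcripts-per-million, reads per length scaled to the same sum in each library). Lama5, the α5 chain of most adult basement membranes, had 5301 and 4921 reads, a log2 difference of -0.18 (-0.23 to -0.12), and was not called. Lamb1 (2926 and 5953 reads) was 1.94-fold higher (1.85 to 2.03) and lay just under the 2-fold threshold, which its interval includes. Lamb2 (3307 and 2875 reads) and Lamc1 (4745 and 4522 reads) had log2 differences of -0.27 and -0.14. Lamb1 and Lamc1, chains of the same trimers, stood at a ratio of 0.514 per length in ctrl and 1.10 in M2. Lama1, the α chain of the tumour matrix from which such gels are made, had 163 and 232 reads, a log2 difference of 0.44 (0.15 to 0.74). Lamc3, with 8 reads in ctrl and 1 read in M2, was not tested.

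**Figure D2:**
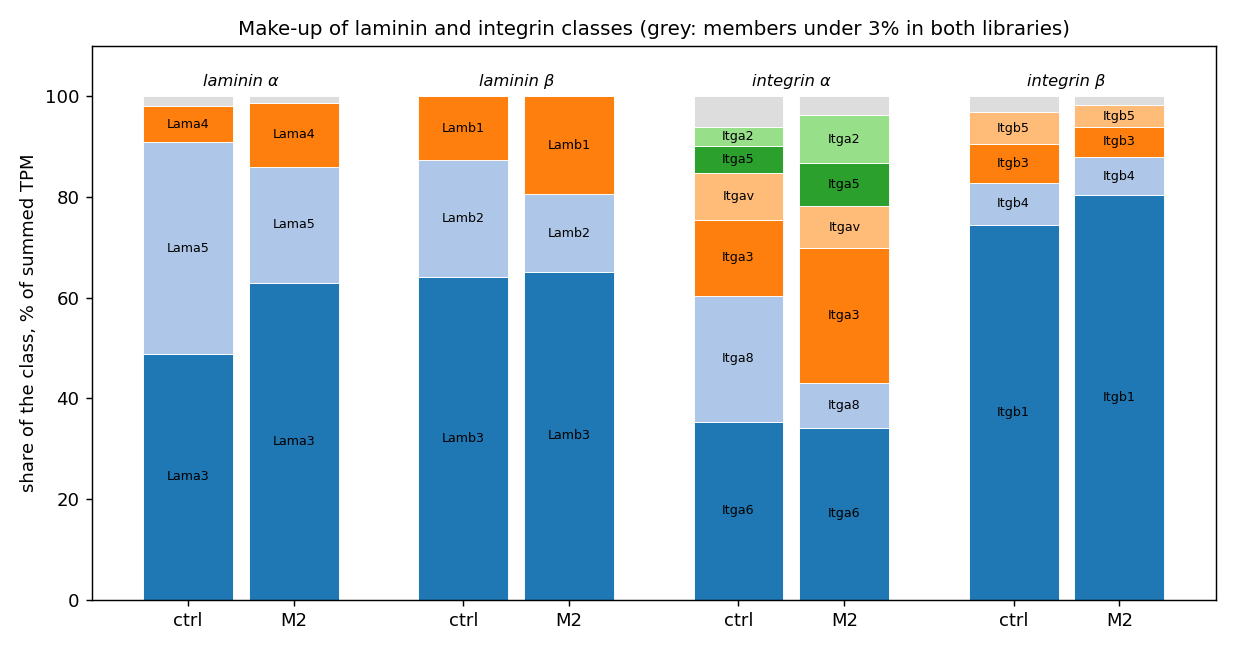
Make-up of the laminin α and β chains and of the integrin α and β subunits in ctrl and M2, as the share of each gene in the summed TPM of its class (vertical axis, percent). Lama5 takes a smaller share in M2, Lamb1 passes Lamb2, and Itga8 drops from 25.1% to 9.08% of the α subunits while Itga3 reaches 26.8%.

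Compared per length within each class, Lama3 led the α chains and Lamb3 the β chains in both libraries. Lama3 made up 48.8% of the α chain TPM in ctrl (95% counting interval 47.9 to 49.7) and 62.9% in M2 (62.2 to 63.5), while Lama5 went from 42.1% (41.2 to 42.9) to 23.1% (22.6 to 23.7). By TPM the α3 and α5 chains were therefore close in ctrl, with 51.1 and 44.1 TPM, and in M2 they stood at 103 and 37.8 TPM. These levels used a single length for each gene, 10745 bases for Lama3, and transcript forms of different length were not told apart. If most Lama3 reads came from a shorter form, its level and its ratios to other genes would be understated. Lamb3 held 64.0% of the β chains (63.3 to 64.7) and then 65.2% (64.5 to 65.8). Lamb1 took 12.7% in ctrl (12.2 to 13.1), behind Lamb2 at 23.3% (22.7 to 24.0), and 19.5% in M2 (19.03 to 19.97), ahead of Lamb2 at 15.4% (14.9 to 15.9). Lama4 went from 7.21% of the α chains to 12.7%.

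**Figure D3:**
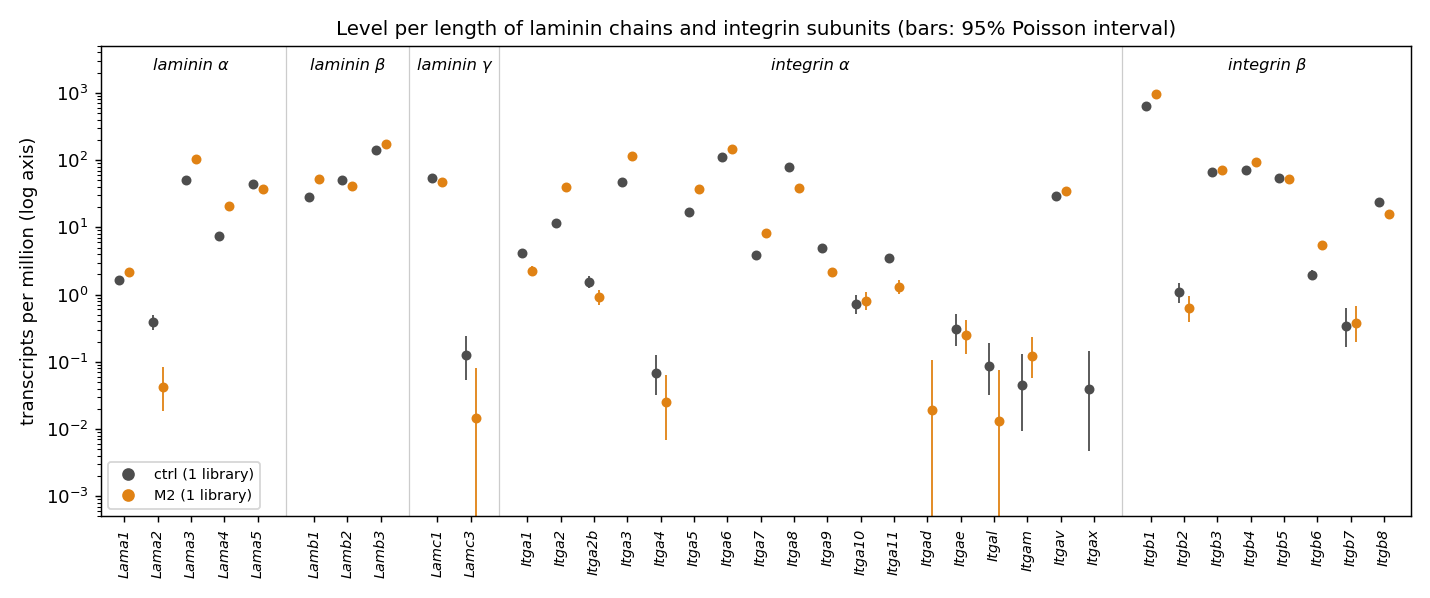
Level per length of laminin and integrin genes in ctrl (dark grey) and M2 (orange), in TPM on a log axis, with 95% Poisson intervals of the reads and 1 library per group. Itgad in ctrl and Itgax in M2 had 0 reads and have no point. Itgb1 is the highest gene in both libraries (638 and 979 TPM), and Itgad and Itgal in M2 are among the lowest points.

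All 5 laminin-binding integrin genes had a higher scaled read count in M2, as had 49.7% of all genes tested, and 2 were called higher, as were 8.16% of all genes tested. Itga3 (chromosome 11, 95044474 to 95076801), the α3 subunit that pairs with β1 to bind laminins of the epithelial basement membrane, went from 2823 reads in ctrl to 7455 in M2, a 2.52-fold rise (95% interval 2.41 to 2.63). Itga7 (chromosome 10, 128933813 to 128958277), the muscle laminin receptor subunit, had 163 and 381 reads, a 2.22-fold rise (1.85 to 2.69). Itga6 (chromosome 2, 71745616 to 71858416), the CD49f subunit used to mark basal and stem cells, had 10489 and 14992 reads, a 1.36-fold difference (1.33 to 1.40) that was not called. Itgb4, its partner in hemidesmosomes, had 5238 and 7514 reads, a 1.37-fold difference (1.32 to 1.42), and 7.66% of its exon bases overlap a gene on the opposite strand that had 937 and 1305 reads. The ratio of Itga6 to Itgb4 per length was 1.56 in the ctrl library and 1.55 in the M2 library, and its log2 change was -0.0052 (-0.07 to 0.06). Itga3 gained on Itga6, with a ratio of 0.425 per length in ctrl and 0.786 in M2, and passed it in neither library.

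Itgb1 (chromosome 8, 128685654 to 128733200), the β1 subunit shared by most of these dimers, had 27481 and 45655 reads, a 1.58-fold difference (1.56 to 1.61) that was not called. By TPM it was the 163rd highest of all genes in ctrl and the 108th in M2. It made up 74.5% of the β subunit TPM in ctrl (74.1 to 74.9) and 80.3% in M2 (80.0 to 80.6). All α subunits together reached 312 TPM in ctrl and 427 TPM in M2, less than Itgb1 alone.

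Among the 4 collagen receptor subunits, 1 was called higher and 1 lower, where 8.16% and 6.55% of all genes tested were. Itga2 (chromosome 13, 114835916 to 114932041), the epithelial collagen receptor subunit, went from 521 reads in ctrl to 1933 in M2, a 3.53-fold rise (3.21 to 3.90) and the largest among integrins. Its adjusted p by exactTest of edgeR was 0.000606 when a coefficient of 0.2 was assumed and 0.651 when it was 0.4. Itga1 had 260 and 155 reads, a log2 difference of -0.81 (-1.11 to -0.52), and was not called. The ratio of Itga2 to Itga1 per length went from 2.85 to 17.7, the largest change among the ratios that were computed. Itga11 (chromosome 9, 62677826 to 62783982), a collagen receptor subunit of fibroblasts, fell from 191 reads to 77, a log2 difference of -1.37 (-1.78 to -0.99). Itga2 thus had the highest level of the collagen receptor subunits in both libraries. Itga10 had 40 and 48 reads and was not called; 33.5% of its exon bases are shared with an unnamed gene model on the same strand.

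**Figure D4:**
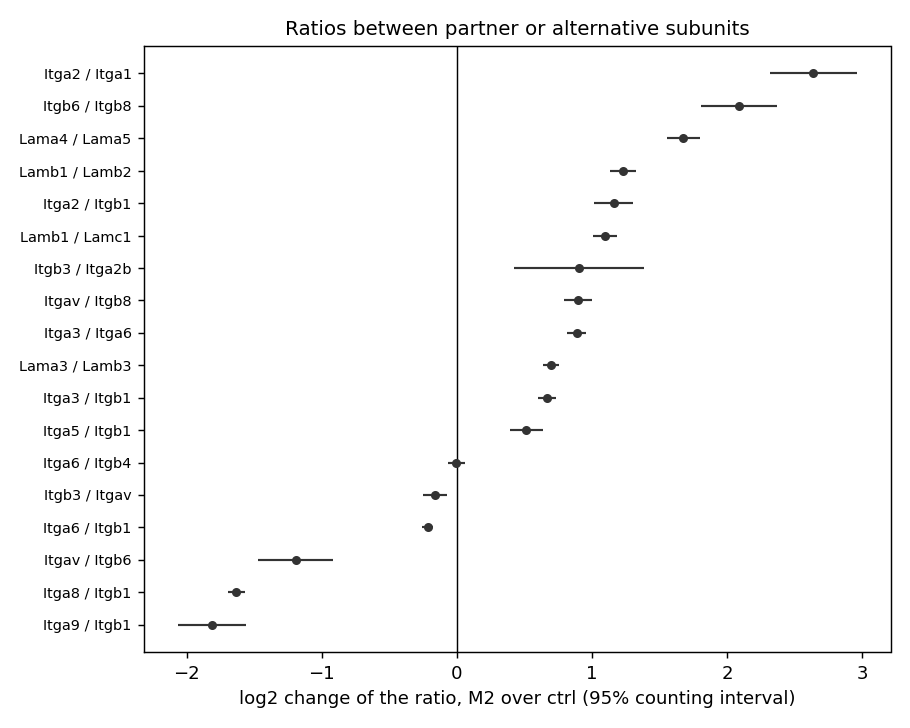
Change in the ratio between pairs of laminin or integrin genes, as log2 of the ratio in M2 over that in ctrl (horizontal axis), with 95% counting intervals; the pairs are partners in a trimer or dimer, or alternatives in the same place. Itga2 over Itga1 is the highest (2.64) and Itga9 over Itgb1 the lowest (-1.81), while the interval of Itga6 over Itgb4 holds 0.

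Of 8 RGD-binding integrins, 2 were called higher and 0 lower, beside 8.16% and 6.55% of all genes tested, and the median log2 difference was 0.08. Itga5 (chromosome 15, 103344286 to 103366763), the fibronectin receptor subunit, went from 790 reads in ctrl to 1874 in M2, a 2.26-fold rise (2.08 to 2.46). Itgb6 (chromosome 2, 60598292 to 60722643), the epithelial partner of αv that activates latent TGF-β, had 147 and 445 reads, a 2.87-fold rise (2.39 to 3.50). Itgb8, the other TGF-β-activating partner of αv, had 2810 and 2000 reads, a log2 difference of -0.56 (-0.64 to -0.48), and was not called. Itgb8 still had the higher level of the pair per length, with Itgb6 at 0.0814 of the Itgb8 level in ctrl and 0.346 of it in M2. Itgav itself (3268 and 4326 reads), Itgb3 (4106 and 4867 reads) and Itgb5 (1928 and 1997 reads) had log2 differences of 0.33, 0.18 and -0.02, and were not called.

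Itga8 (chromosome 2, 12106632 to 12301922), the α8 subunit that pairs with β1 and binds nephronectin, went from 6085 reads in ctrl to 3263 in M2. It was the second α subunit by TPM in ctrl, with 78.2 TPM, and the fourth in M2, with 38.8 TPM. Its log2 difference of -0.97 (-1.03 to -0.91) lay just inside the 2-fold threshold, and it was called lower when libraries were scaled by total reads alone (-1.03). An antisense gene that overlaps 5.05% of its exon bases had 1405 and 444 reads, and since the use of strand in counting is not stated, reads of the overlap cannot be assigned with certainty. Npnt, which encodes nephronectin, went from 187 to 900 reads and was called higher (log2 difference 2.19, 95% interval 1.97 to 2.43). Itga9 (chromosome 9, 118606690 to 118901003), whose ligands include tenascin and osteopontin, fell from 397 reads to 188, a log2 difference of -1.14 (-1.41 to -0.89). Itga4, its close relative on leukocytes, had 10 and 4 reads.

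The summed level of fibroblast markers was lower in M2, as were Lama2, Itga9 and Itga11. The 6 markers held 271 CPM in ctrl and 125 CPM in M2, while Pdgfra had 607 and 822 reads. Of the 6 markers, 2 were called lower (Col1a2 and Pdgfrb), against 6.55% of all genes tested. Dcn was the 1 called higher, against 8.16% of all genes tested, and 3 markers were not called. The part of fibroblast transcripts in the lower values of Lama2, Itga1, Itga8, Itga9 and Itga11 was not tested. The integrins of leukocytes had few reads. Itgal, Itgam, Itgax, Itgad, Itgae, Itgb2 and Itgb7 held 71 ctrl reads and 58 M2 reads in total. A gene had at most 35 reads (Itgb2 in ctrl), and of the 4 tested 0 were called, beside 14.7% of all genes tested. Itgam, the subunit of the macrophage and neutrophil receptor Mac-1, had 3 and 9 reads. The leukocyte and macrophage markers Ptprc, Tyrobp, Fcer1g and Adgre1 had 0 reads in both libraries, where a count of 0 allows up to 3 reads, or 0.109 CPM in ctrl and 0.104 CPM in M2. Of all 11 such markers, 5 were at 0 in ctrl and 4 in M2, and their summed level was 10.2 and 9.79 CPM. Most reads of this list were from Cd68 (170 in ctrl and 165 in M2) and Csf1r (94 and 92), and neither was called. Itga2b, the platelet subunit, had 90 and 57 reads and was not called, while the platelet marker Pf4 had 0 reads in both libraries. Pf4 belongs to a list of 6 endothelial and platelet markers, 3 of them tested. Against 8.16% and 6.55% of all genes tested, 1 was called higher (Pecam1) and 2 lower (Cdh5 and Kdr). All had few reads, with 33 and 76 for Pecam1, 11 and 2 for Cdh5, and 11 and 0 for Kdr. With the exactTest, the call of Cdh5 was lost at an assumed coefficient of variation of 0.1. That of Pecam1 was lost at 0.2 and that of Kdr at 0.4.

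The proteins that surround laminins and integrins were examined in the same way. Of 19 basement membrane partners, 4 were called higher and 3 lower, against 8.16% of all genes tested called higher and 6.55% called lower, and the median log2 difference was -0.46. Col18a1, a basement membrane collagen, rose from 4163 to 17916 reads (log2 difference 2.04, 95% interval 1.99 to 2.09). Nid1, the nidogen that ties laminin to collagen IV, rose from 559 to 1402 reads (1.26, 1.11 to 1.40). Col4a3 was also called higher, with 25 and 55 reads. Col7a1, the anchoring fibril collagen and the partner with the most reads, had 14770 and 20463 reads (0.40) and was not called. Of the collagen IV genes with many reads, Col4a1 had 16628 and 9647 reads (-0.85) and Col4a2 had 12729 and 7851 reads (-0.77). Col4a6 had 7922 and 4884 reads (-0.77) and Col4a5 had 13325 and 11655 reads (-0.26). None of these collagen IV genes was called. Those called lower had few reads, namely Fras1 (122 and 47 reads), Frem1 (63 and 8 reads) and Egflam (14 and 4 reads). With the exactTest, the call of Egflam was lost at an assumed coefficient of variation of 0.1 and that of Col4a3 at 0.2, and at 0.4 the partners had 0 calls.

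Among 6 other integrin ligands tested, 3 were called higher and 0 lower, and the median log2 difference was 0.93. Of all genes tested, 8.16% were called higher and 6.55% lower. Spp1, which encodes osteopontin, rose from 4199 to 21651 reads (2.30, 2.25 to 2.35), and Tnc, which encodes tenascin-C, from 12433 to 39838 reads (1.61, 1.58 to 1.64). Vcam1 had 505 and 1065 reads (1.01, 0.85 to 1.16), with an interval that includes the 2-fold threshold. Its call was lost at an assumed coefficient of 0.2. At 0.4 these ligands had 0 calls. Fn1, the gene of fibronectin, had the most reads of this list, 31707 and 59215, a log2 difference of 0.83 (0.81 to 0.85) that was not called.

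The machinery inside the cell and other partners of these receptors were examined next. Of 19 adaptors and kinases tested, 0 were called in either direction, and the median log2 difference was 0.16. Flna, an actin crosslinker that binds β tails and the gene with the most reads of this list, had 39909 and 48862 reads (0.22, 0.20 to 0.24), Tln1 had 7586 and 8913 reads (0.16) and Ptk2, the focal adhesion kinase, 2232 and 2106 reads (-0.15). Likewise 0 of 4 hemidesmosome partners were called, with Col17a1 at 16722 and 22797 reads (0.38) and Plec at 15092 and 12549 reads (-0.34). Of 6 other laminin receptors 0 were called; Dag1, which encodes dystroglycan, had 14198 and 15157 reads (0.03, -0.01 to 0.06), and Sdc4 had the most reads, 42110 and 29745 (-0.57). These counts stand against 14.7% of all genes tested that were called in either direction. The share was smaller among genes with at least 1 CPM in both libraries, where 797 were called higher and 583 lower of 14590 tested. At such shares, lists of 4, 6 and 19 tested genes can hold 0 calls, so these counts do not set the lists apart.

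**Figure D5:**
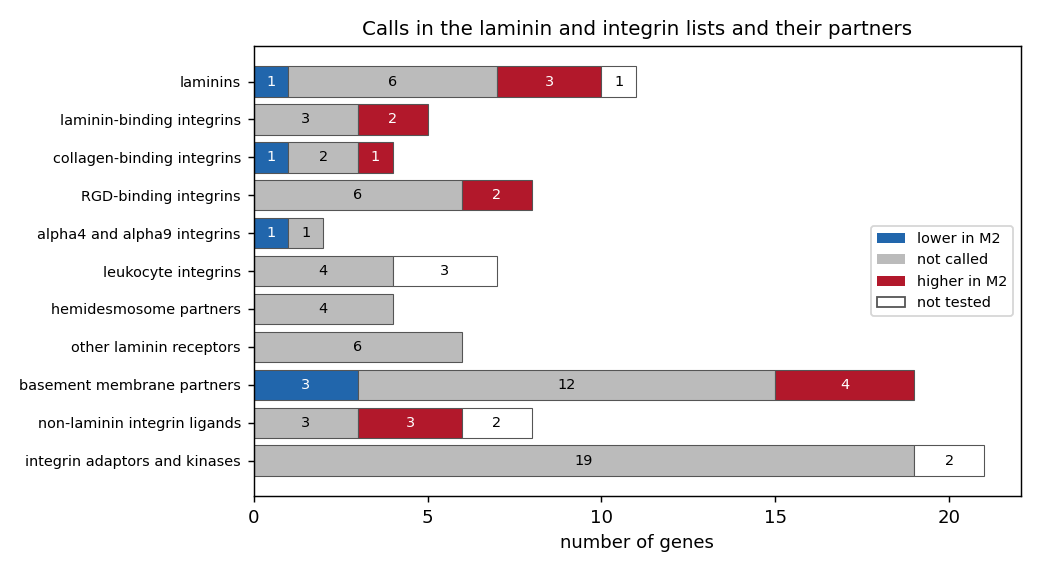
Number of genes called lower (blue), not called (grey), called higher (red) and not tested (white) in M2, for the laminins, 5 integrin classes and 5 lists of partner genes (horizontal axis, number of genes). Calls lie in the laminins, the integrin classes except leukocyte integrins, the basement membrane partners and the integrin ligands. There are 0 among leukocyte integrins, hemidesmosome partners, other laminin receptors and integrin adaptors and kinases, which are lists of 4 to 19 tested genes.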

How the data were processed

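The authors deposited raw counts of reads for each gene, not normalized, in 1 ctrl and 1 M2 library. Per the labels, RNA came from an extraction on columns and a SMARTER kit was used for mRNA libraries, whereas RNAiso Plus is the reagent in the study's methods. The submitters' processing notes list GRCm38 and mm10; the aligner, counter, annotation and use of strand are not given in the sources used here. All 37 members overlap the gene of that name in GENCODE M21 and 30 have the same start and end. Per the file headers, the table also gives the length of each gene, which was used for TPM. Members and lists were chosen with earlier results of these data known.

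Library sizes were scaled with TMM factors of 1.02 (ctrl) and 0.980 (M2) from edgeR 4.0.16 under R 4.3.3. Genes with at least 10 reads summed entered an exact binomial test, two-sided, in scipy 1.17.1, since 1 library per group gives no dispersion. P-values were adjusted over all 19233 genes, and the study's thresholds, an adjusted p of 0.05 and 2-fold, were used. Fold differences have 95% Clopper-Pearson intervals, ratios of genes have 95% normal or exact odds ratio intervals, and shares have Wilson intervals, carried over to TPM by odds. With no molecular identifiers stated, intervals and the floor of 3 reads cover counting error only. TPM are scaled without TMM, so their ratios differ slightly from the fold differences. For genes with at most 3 reads in a library no fold difference is given. The test functions were checked on simulated data. The text may name every laminin and integrin gene; of each other list, the rule was the 3 called members with the most reads in each direction, all called members of a list of at most 8, and the member with the most reads; marker lists are given by sums, counts and members at 0 reads. Beyond these, the epithelial markers, Pecam1, Cdh5, Kdr, Col1a2, Pdgfrb, Dcn, Col4a1, Col4a2, Col4a3, Col4a5, Fn1, Tln1, Ptk2, Plec, Col17a1, Dag1 and Pdgfra were named after their values were seen. Cd68, Csf1r and Col4a6 were also named after their values were seen. Gene pairs for ratios were picked with the table at hand. Promoter sequences are those of RefSeq on GRCm38.p6. Counts over the members include 1 gene that is not reported here.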

Additional observations from a re-analysis of the deposited data

How the results depend on the processing

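With 1 choice changed at a time, no member changed direction. When both libraries had to reach 1 CPM, the counts over all genes moved to 797 higher and 583 lower, because fewer genes were tested, and the median log2 difference of the members moved from 0.19 to 0.36. This filter left 27 members, with 8 higher and 2 lower, since Lama2 was no longer tested. With an assumed coefficient of variation of 0.2, the exactTest gave 964 genes higher and 691 lower, and 4 members higher; with 0.4 it gave 175 and 130 genes, and 0 and 0 members. At 4-fold there were 616 and 494 genes, and 0 members higher and 1 lower (Lama2). At 1.5-fold there were 2462 and 2143 genes, and 10 members higher and 6 lower. Scaling by total reads left 7 members higher, without Lama3, and 4 lower, with Itga8 added. After a trend with gene length was removed, an alternative chosen after seeing the data, 9 members were higher, with Lamb1 added. The median-of-ratios and upper quartile scalings, the filter of 1 read, both other pseudocounts and a coefficient of 0.1 changed no call of a tested member. Without length, the leading gene of each class stayed the same. No paired analysis was possible because there was 1 library per group. DESeq2 has no test without replicates and was not run, and no library could be left out. Depth limits Lama2, Itga4, Itgam and the other leukocyte integrins.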
